A study of Homo sapiens with 6 samples.

Results

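The genes described here are those of glucose breakdown to lactate and of the cellular response to low oxygen. They include glucose transporters, the glycolytic enzymes and their isoforms, and the kinases that set the flow through the pathway. Genes of oxygen sensing and targets of the hypoxia-inducible factors complete the list. Members were taken by symbol, and a gene was measured where at least 1 probe set was annotated with its symbol and no other. Of 35 listed genes, 32 were measured, on 55 probe sets, among 11963 genes on the array; SLC16A1, SLC16A3 and CA9 were not analysed here. Where a gene had several probe sets (15 members), the one with the highest mean over the arrays stands for it, and the others are described separately.

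The arrays were Affymetrix GeneChip arrays of SH-SY5Y, a human neuroblastoma line, 3 arrays per treatment. One treatment was Bf 140 nM for 1 h, that is unconjugated bilirubin, the pigment formed from haem, dissolved in DMSO and given at a free, albumin-unbound concentration of 140 nM. The other was the solvent alone, DMSO 0.6%, for 1 h. Flasks of both treatments had the same serum-containing medium, no low-oxygen condition is among the groups, and all arrays come from 1 cell line. The replicates are stated to be biological, and each replicate number of the titles occurs once in either treatment. Values are VSN-normalized levels, read as log2, so that a difference of 1 is 2-fold for bright probe sets, while for dim ones VSN shortens the difference. The number of arrays limits the precision.

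Glycolysis splits glucose into pyruvate in the cytosol, and lactate dehydrogenase turns pyruvate into lactate when it is not burned in mitochondria. When oxygen is scarce, the prolyl hydroxylases of the EGLN family no longer mark the alpha subunits of the hypoxia-inducible factors, HIF1A and EPAS1, for destruction; the stabilized factors bind short DNA elements and raise transcription of glucose transporters, most glycolytic enzymes, pyruvate dehydrogenase kinases, VEGFA and the hydroxylase EGLN3 itself. Control of HIF1A is largely at the protein, so its mRNA need not move when the pathway is switched on. Neuroblastoma cells, like many tumour cells, use glycolysis heavily also with oxygen present.

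The DNA element that the factors bind has the core ACGTG or GCGTG, which reads CACGT or CACGC on the other strand. RefSeq promoter windows (GRCh38.p14) were at hand for 30 of the 35 members, 57 windows in all, and the 250 bases before each start were searched on both strands. At least 1 such core stood in 33 of 57 windows (57.9%), against 15172 of 35116 windows of all genes (43.2%), and median GC content was 68.4% in members' windows and 58.0% in all windows. By gene, 25 of 30 members (83.3%) and 12945 of 27305 genes (47.4%) had a core in at least 1 window. Members had more windows per gene (57 for 30 genes, against 35116 for 27305), which raises their share by gene. CACGTG, the E-box that contains the core on both strands, was in 10.5% of members' windows and 6.35% of all windows. The stretches below are shown because they belong to enzymes, a regulator, a target and oxygen-sensing genes whose levels are described next. Every core is in capitals, and a match is a description of the letters and not a binding site.
LDHA, chr11:18394455-18394514, plus strand: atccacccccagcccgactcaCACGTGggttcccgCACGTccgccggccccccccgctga
PGK1, chrX:78104023-78104082, plus strand: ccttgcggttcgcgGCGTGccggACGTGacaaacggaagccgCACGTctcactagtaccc
ENO1, chr1:8878821-8878880, minus strand: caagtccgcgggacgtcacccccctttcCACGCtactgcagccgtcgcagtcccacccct
PDK1, chr2:172556030-172556089, plus strand: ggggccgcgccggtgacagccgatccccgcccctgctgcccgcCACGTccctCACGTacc
P4HA1, chr10:73096921-73096980, minus strand: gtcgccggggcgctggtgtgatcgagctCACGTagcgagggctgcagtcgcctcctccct
EPAS1, chr2:46297262-46297321, plus strand: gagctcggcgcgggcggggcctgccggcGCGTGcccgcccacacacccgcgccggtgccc
EGLN1, chr1:231422288-231422347, minus strand: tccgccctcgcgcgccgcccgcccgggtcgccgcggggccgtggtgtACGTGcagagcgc
The LDHA stretch holds the E-box CACGTG and a further core, PGK1 holds 3 cores and PDK1 holds 2. SLC2A1, PGAM1, PKM, LDHB and EGLN3 had windows with no core, which says only that these letters are not in the 250 bases searched.

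The labelled cell line was checked first. PHOX2A, GATA3, DBH and ISL1, markers of noradrenergic neuroblastoma cells, were in the top 25% of all probe sets (4 of 6 measured markers), while TH, the rate-limiting enzyme of catecholamine synthesis, lay at the 13.9th percentile and HAND2 near the middle. Of 5 markers of mesenchymal or Schwann-like cells, COL3A1 and FN1 were in the top 25% (2 of 5), COL1A1 lay at the 62.6th percentile, and S100B and PRRX1 lay below the median. ALB, GFAP, PTPRC and PECAM1, markers of liver, astrocytes, leukocytes and endothelium, were below the median (0 of 4 above it). In these bulk samples, fewer cells of a type and less RNA per cell cannot be told apart. All 6 arrays had medians between 7.73 and 7.97. The replicate 3 arrays stood apart: they correlated with the replicate 1 and 2 arrays at 0.961 to 0.977, against at least 0.993 among the replicate 1 and 2 arrays, and at 0.995 with each other.

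Bf 140 nM for 1 h moved none of the 32 genes past the threshold. By replicate number 18 of them (56.2%) passed the same threshold, against 44.2% of all genes. With a filter on dim probe sets these shares were 59.3% and 60.4%. By limma's moderated test over 22215 probe sets, at an adjusted p under 0.10, 0 members were higher and 0 lower with Bf 140 nM; over all probe sets the shares were 0% higher and 0% lower, and with the replicate number as a block again 0 members and 0% of all probe sets passed. At an unadjusted p under 0.05, 0 of the 32 members' brightest probe sets passed, against 0.0990% of all probe sets. With the block 0 of these brightest probe sets passed, against 1.22% of all. The adjusted p was 1.00 for every member. The Bf and DMSO values overlapped in all 32 genes: non-overlap was found in 0 members in either direction, where 1.81% of all genes lay entirely above and 0.577% entirely below the DMSO values. With 3 arrays against 3, an exact two-sided permutation test cannot go below 0.1.

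Across members the Bf minus DMSO difference ran from −0.10 (P4HA1) to 0.13 (PFKFB4), with a median of 0.01, beside 0.01 for all 11963 genes; 18 of 32 were positive. The median size of the difference was 0.04 in members and 0.05 in all genes. In replicate numbers 1, 2 and 3, the median member differed by 0.03, 0.04 and −0.04, so the 3 numbers gave no single direction. TPI1 and BHLHE40 were higher with Bf in every number (2 of 32 members, 6.25%, against 11.1% of all genes), and PGAM1 was lower in every number (1 of 32, 3.12%, against 5.17%). The differences of TPI1 were 0.01 in each number, those of BHLHE40 were 0.12, 0.04 and 0.13, and those of PGAM1 were −0.02, −0.10 and −0.17. With equal array medians the mean difference of TPI1 was −0.009 instead of 0.011, and 6 of 32 members changed sign. By role, the median difference was 0.00 for the 16 glycolytic enzymes and lactate dehydrogenases, 0.01 for the 2 transporters, −0.01 for the 5 regulators, 0.01 for the 4 oxygen-sensing genes and 0.06 for the 5 hypoxia targets.

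**Figure D1:**
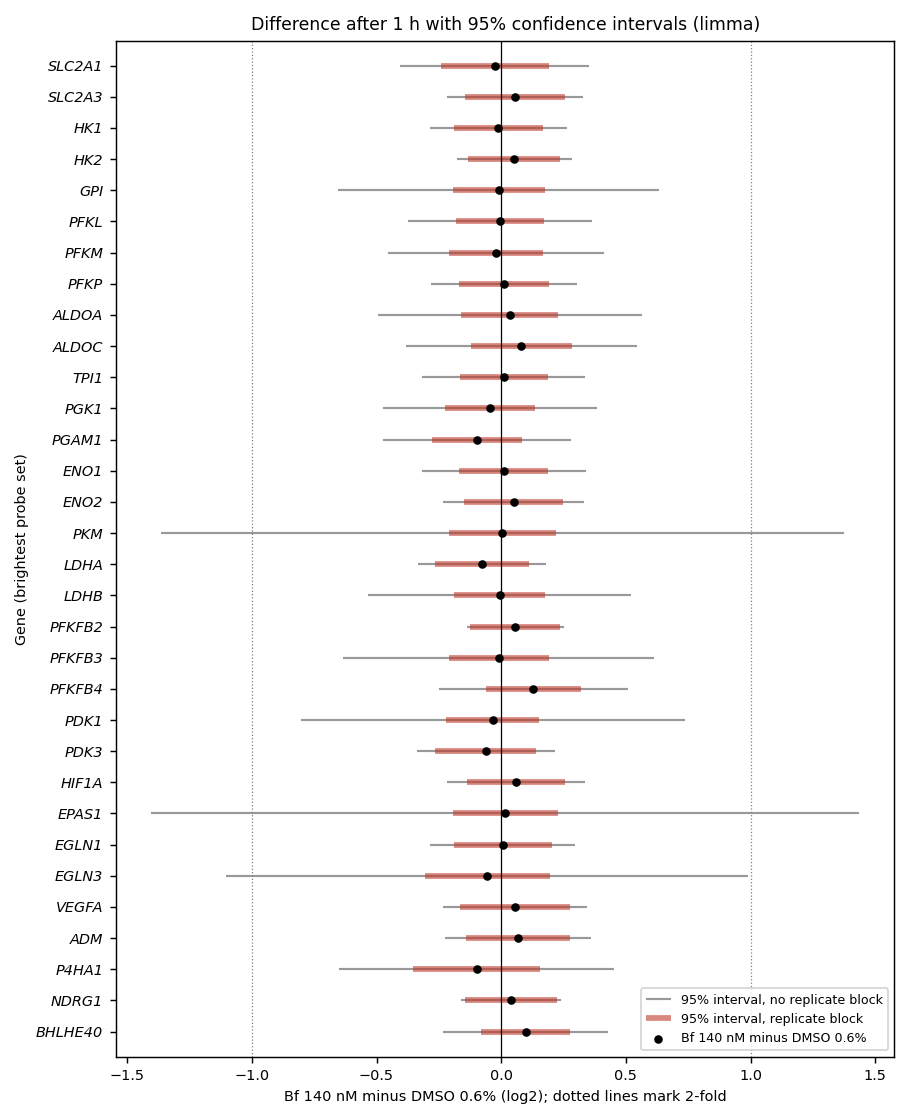
Bf minus DMSO difference of each of the 32 measured members on the log2 scale, with 95% confidence intervals without the replicate block (thin lines) and with it (thick bars); dotted lines mark 2-fold. Every interval includes 0, and the thin lines of PKM, EPAS1 and EGLN3 are the widest.

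The intervals bound what the arrays could have shown. Without the block, the 95% interval excluded a 2-fold change in either direction for 29 of 32 members, all but PKM, EPAS1 and EGLN3, and a 1.5-fold change for 25. Those shares, 90.6% and 78.1% of members, were below the 97.1% and 81.7% of all genes. With the replicate block every member's interval excluded a 1.5-fold change (32 of 32), against 11953 of 11963 genes, and its median half-width was 0.19 against 0.35 without the block. PKM's interval was −1.36 to 1.37 without the block and −0.21 to 0.22 with it, EPAS1's −1.40 to 1.43 and −0.19 to 0.23, and EGLN3's −1.10 to 0.99 and −0.31 to 0.19. These bounds hold on the VSN scale, which shortens fold changes of dim probe sets; PFKFB2, PFKFB4, PDK1, BHLHE40 and SLC2A3 were dimmer than the median probe set.

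GLUT1 (SLC2A1) and GLUT3 (SLC2A3), the main neuronal type, are carriers by which glucose can enter cells. In replicates 1, 2 and 3, SLC2A1 was at 8.66, 8.51 and 8.68 with Bf 140 nM and at 8.46, 8.49 and 8.97 with DMSO 0.6%. SLC2A3 was at 6.63, 6.84 and 6.73 with Bf and at 6.77, 6.76 and 6.51 with DMSO, at the 19.8th percentile of all probe sets. Both sets of values overlapped, with differences of −0.03 and 0.06. SLC2A3 also has 2 probe sets that its gene shares with SLC2A14, which were not used.

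Along the pathway, all 16 enzymes lay above the median level of all probe sets, and 12 were in the top 10%; brightness also depends on each probe set's sequence, so levels of different enzymes are not ranked. Hexokinase was read as HK1, at 11.54 ± 0.13 with Bf and 11.55 ± 0.14 with DMSO (SD, n = 3 each), and as HK2, at 9.27 ± 0.06 with Bf and 9.22 ± 0.11 with DMSO. The phosphofructokinases catalyse the committed step, and PFKL and PFKP averaged 8.92 and 11.21 with Bf and 8.92 and 11.20 with DMSO. PFKM was at 11.32, 10.88 and 10.74 with Bf and 11.21, 10.93 and 10.86 with DMSO, so that all 3 forms were measured and none separated the treatments. GPI, the isomerase, was at 11.80, 11.12 and 11.08 with Bf and 11.76, 11.25 and 11.02 with DMSO, high in replicate 1 of both treatments. ALDOA, the aldolase of most tissues, was at 12.81, 12.16 and 12.34 with Bf and 12.74, 12.31 and 12.17 with DMSO, again highest in replicate 1. ALDOC, the aldolase typical of brain, was at 9.34, 9.17 and 9.03 with Bf and 9.42, 9.15 and 8.73 with DMSO.

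TPI1, which interconverts the triose phosphates, was at 13.09, 12.99 and 12.75 with Bf and 13.07, 12.98 and 12.74 with DMSO, lowest in replicate 3 of both treatments. PGK1, the first ATP-yielding step, was at 12.86, 12.95 and 13.32 with Bf and 12.97, 12.92 and 13.38 with DMSO, highest in replicate 3 of both. PGAM1, the mutase, was at 12.97, 12.74 and 13.12 with Bf and 12.99, 12.84 and 13.28 with DMSO. None of these 3 separated the treatments. Enolase was read as ENO1, the form of most tissues, at 13.38, 13.09 and 13.02 with Bf and 13.33, 13.09 and 13.04 with DMSO, and as ENO2, the neuronal form, at 10.14, 10.50 and 10.37 with Bf and 10.29, 10.35 and 10.22 with DMSO.

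PKM, pyruvate kinase, was the enzyme with the widest spread: 12.41, 12.65 and 11.18 with Bf and 12.69, 12.53 and 11.01 with DMSO. Replicate 3 was more than 1 below the other replicates in both treatments, while Bf minus DMSO was 0.00. LDHA, the lactate dehydrogenase subunit that favours lactate formation, was at 13.67, 13.46 and 13.52 with Bf and 13.64, 13.50 and 13.75 with DMSO. LDHB, the subunit that favours pyruvate, was at 13.80, 13.81 and 14.28 with Bf and 13.79, 13.74 and 14.37 with DMSO, highest in replicate 3 of both. GAPDH, the glycolytic dehydrogenase often used as a control gene and no member here, averaged 14.23 ± 0.07 with Bf and 14.20 ± 0.07 with DMSO.

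**Figure D2:**
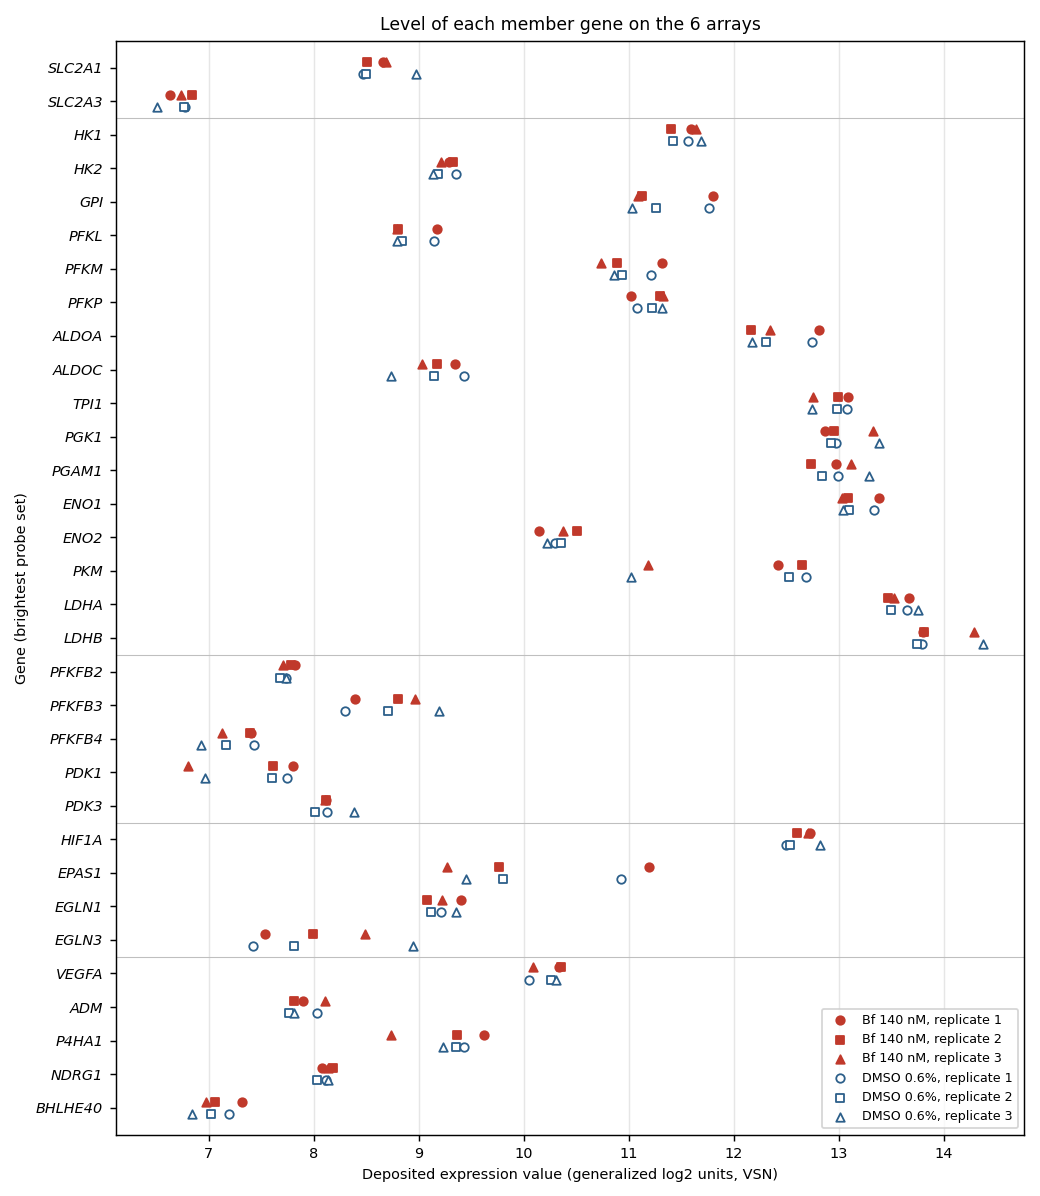
VSN-normalized log2 level of the 32 measured members in the 6 arrays, Bf 140 nM and DMSO 0.6%, ordered by role. Bf and DMSO values overlap for every gene, PKM and PDK1 are lowest and EGLN3 highest in replicate 3 of both treatments, and EPAS1 is highest in replicate 1 of both.

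Among regulators of the flow through the pathway, too, no gene separated the treatments. PFKFB2, PFKFB3 and PFKFB4 make or break fructose 2,6-bisphosphate, the activator of phosphofructokinase, and averaged 7.77, 8.72 and 7.30 with Bf and 7.71, 8.73 and 7.17 with DMSO. PFKFB3, which hypoxia induces, was at 8.39, 8.80 and 8.96 with Bf and 8.30, 8.70 and 9.19 with DMSO, lowest in replicate 1 and highest in replicate 3 of both. PFKFB4 had the highest difference of all members, 0.13 (95% interval −0.25 to 0.51), with values of −0.03, 0.22 and 0.20 in numbers 1, 2 and 3. PDK1, a pyruvate dehydrogenase kinase, was at 7.80, 7.61 and 6.80 with Bf and 7.75, 7.60 and 6.97 with DMSO, lowest in replicate 3. PDK3 was at 8.12, 8.11 and 8.10 with Bf and 8.13, 8.01 and 8.38 with DMSO.

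Among the oxygen-sensing genes, HIF1A encodes the alpha subunit found in nearly all cells. It was at 12.72, 12.60 and 12.70 with Bf and 12.50, 12.53 and 12.82 with DMSO. EPAS1, the second alpha subunit, prominent in sympathetic and endothelial cells, was at 11.19, 9.76 and 9.27 with Bf and 10.93, 9.80 and 9.45 with DMSO. Its replicate 1 values stood more than 1 above all others in both treatments, and its difference was 0.02. EGLN1, the main oxygen-sensing hydroxylase, was at 9.40, 9.08 and 9.22 with Bf and 9.21, 9.11 and 9.35 with DMSO. EGLN3, a hydroxylase that hypoxia-inducible factors induce, was at 7.53, 7.99 and 8.49 with Bf and 7.42, 7.81 and 8.95 with DMSO, lowest in replicate 1 and highest in replicate 3 of both treatments.

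Of the target genes, VEGFA, the growth factor of vessels, was at 10.34, 10.35 and 10.09 with Bf and 10.05, 10.25 and 10.31 with DMSO. Its differences in numbers 1, 2 and 3 were 0.29, 0.10 and −0.22. P4HA1, a subunit of the hydroxylase that matures collagen, was at 9.62, 9.36 and 8.73 with Bf and 9.43, 9.35 and 9.23 with DMSO, and its negative difference of −0.10 came from number 3 alone, at −0.50. ADM (adrenomedullin, a vasodilator peptide), NDRG1 and BHLHE40 (a repressor of transcription) differed by 0.07, 0.04 and 0.10.

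Replicate number, in contrast, separated many of these genes. A moderated F test of the number was run in a limma model with the treatment. It gave an adjusted p under 0.10 for 18 of 32 members (56.2%), against 44.2% of all genes. These were 11 of the 16 pathway enzymes, 3 of 5 regulators, 2 of 4 oxygen-sensing genes, 2 of 5 targets and 0 of 2 transporters. Among the 27 members left by a filter on dim probe sets the share was 59.3%, against 60.4% of all genes left, so the members' share was not above the background there. The shares given below for single contrasts and for the spread between probe sets are without that filter. A number may mark a day or a batch, which the sources do not say. The range over the numbers was wider than the difference between treatments in 31 of 32 members (96.9%), against 93.3% of all genes, and its median was 0.34 in members and 0.26 in all genes. The range spans more means, each of fewer arrays, than the difference does. It would tend to be wider even without an effect of the number, so this count does not weigh number against treatment.

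Between replicates 2 and 1, a contrast that leaves out the levels of the arrays that stood apart, EPAS1, GPI and ALDOA were lower in replicate 2 (3 of 32 members, 9.38%, against 3.59% of all genes) and PFKFB3 was higher (1 of 32, 3.12%, against 1.30%). EPAS1 was lower by 1.28 (limma adjusted p = 0.00057), GPI by 0.60 (adjusted p = 0.011) and ALDOA by 0.54 (adjusted p = 0.022). These 4 members kept direction and call with quantile normalization and with equal array medians. The second EPAS1 probe set was also lower in replicate 2, by 0.58 (adjusted p = 0.041), and the second ALDOA probe set was lower by 0.60.

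Replicate 3 against the mean of replicates 1 and 2 was lower in 13 members (40.6%, against 25.6% of all genes) and higher in 6 (18.8%, against 20.0%). With equal array medians the split was 4 lower and 14 higher (12.5% and 43.8%, against 11.2% and 41.1% of all genes), and with quantile normalization it was 11 lower and 8 higher (34.4% and 25.0%, against 18.4% and 26.9%). The median of all genes moved from −0.05 as deposited to 0.15 and 0.04, so directions of smaller shifts depend on the scaling. In all 3 scalings PKM, EPAS1, PDK1 and GPI were called lower and SLC2A1, PGK1, LDHB, PFKFB3 and EGLN3 higher in replicate 3. PKM was lower by 1.47 (limma adjusted p = 5.0e-07), EPAS1 by 1.06 (adjusted p = 5.8e-06) and PDK1 by 0.80 (adjusted p = 2.0e-05), while EGLN3 was higher by 1.03 (adjusted p = 2.9e-05) and LDHB by 0.54 (adjusted p = 0.00035). This contrast singles out the arrays already seen to stand apart, so its adjusted p-values are descriptive. The shift of PKM was −1.35 within Bf and −1.59 within DMSO, that of EGLN3 0.73 and 1.33, and that of P4HA1 −0.76 and −0.16. Both treatments shifted the same way in 25 of 32 members (78.1%), near the 76.7% of all genes. The difference between 3′ and 5′ probe sets of the actin control was 0.12, 0.50 and 1.49 with Bf and 0.10, 0.37 and 1.90 with DMSO, and that of the GAPDH control was 0.21, 0.25 and 1.03 with Bf and 0.20, 0.21 and 1.15 with DMSO. Both were widest in replicate 3; their part in the shifts was not tested.

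**Figure D3:**
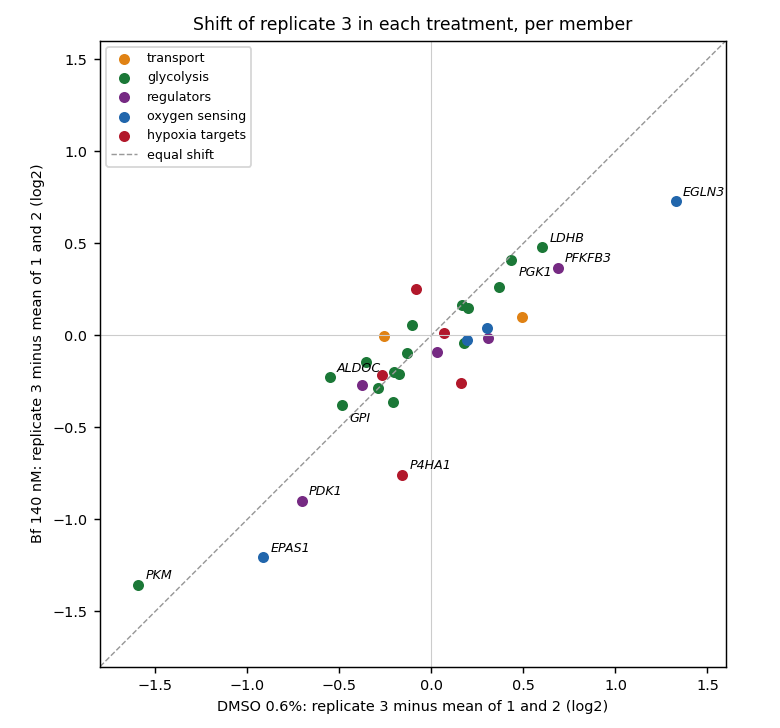
Shift of replicate 3 against the mean of replicates 1 and 2 for each measured member, in log2, within Bf 140 nM (vertical axis) and within DMSO 0.6% (horizontal axis); colours give the role and the dashed line equal shifts. PKM, EPAS1 and PDK1 lie low and EGLN3 and LDHB high in both treatments.

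Probe sets of the same gene did not always share these shifts. For PGK1, replicate 3 minus the mean of 1 and 2 was 0.42 on the brightest probe set and −0.81, −0.16 and 0.90 on the others. ENO1 gave −0.19, −1.71 and 0.24, and VEGFA −0.05, −1.02, −1.08 and −1.24. TPI1 gave −0.29, −0.13 and 0.85, and PKM −1.47 and −0.14. SLC2A1, called higher on its brightest probe set at 0.30, gave −0.04 on the other (adjusted p = 0.79). Both LDHB probe sets gave 0.54 and the EPAS1 ones −1.06 and −0.79. The shift differed in sign between probe sets in 6 of 15 members (SLC2A1, HK2, TPI1, PGK1, ENO1 and BHLHE40; 40.0%), against 53.3% of 4310 genes with several probe sets, and by more than 1 in 5 (33.3%), against 17.5%. The replicate 3 shifts of SLC2A1, PGK1, ENO1, VEGFA, TPI1 and PKM given above are thus values of 1 probe set each, and other probe sets of these genes gave other values.

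**Figure D4:**
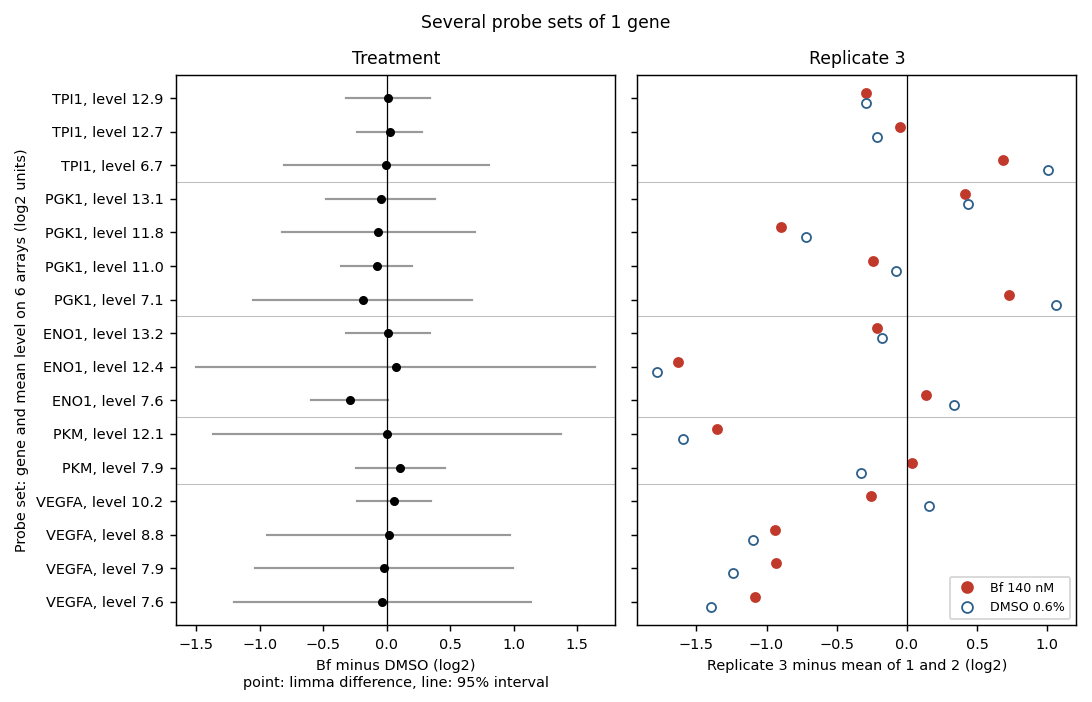
Each probe set of TPI1, PGK1, ENO1, PKM and VEGFA, named by its mean level: Bf minus DMSO with its 95% interval (left), and replicate 3 minus the mean of replicates 1 and 2 within Bf 140 nM and within DMSO 0.6% (right), all in log2. Averaged over both treatments, the replicate 3 shifts run between −1.71 and 0.90, while the Bf minus DMSO differences lie between −0.29 and 0.11.

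For Bf minus DMSO, probe sets of 1 gene lay closer together: their spread had a median of 0.07 in 15 members and 0.09 in all 4310 genes, and all signs matched in 6 of 15 (40.0%), against 42.1%. ENO1, known to be discordant from earlier results of these data, had the widest spread of the members. Its brightest probe sets, at 13.2 and 12.4, differed by 0.01 and 0.07, and its dim one, at 7.62, by −0.29. The dim probe set was at 7.36, 7.50 and 7.57 with Bf and at 7.65, 7.65 and 7.99 with DMSO, all Bf arrays lower, with an adjusted p of 1.00 without and with the block. Over the 55 member probe sets it was the only one with all Bf values below the DMSO values (0.590% of all probe sets), and SLC2A3's second, at 6.27, 6.08 and 6.09 with Bf and 5.98, 6.03 and 6.05 with DMSO, the only one with all above (2.06%).

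Further genes of the pathway and of oxygen sensing also gave no calls. Of further glycolysis and pyruvate genes, 27 of 32 were measured, 0 passed in either direction, and the median difference was 0.00; MPC2, a subunit of the mitochondrial pyruvate carrier, had Bf values of 10.92, 10.80 and 10.97 above DMSO values of 10.77, 10.80 and 10.78, with a difference of 0.11 and an adjusted p of 1.00. It was the 1 gene of these 27 without overlap (3.70%, against 1.81% of all genes), and its closest values, both of number 2, were 0.0021 apart. SLC2A6 and SLC2A2, sugar transporters, differed by 0.14 and 0.11. Of further hypoxia targets, 33 of 35 were measured, 0 passed, and the median was 0.02; TF (transferrin), MIF (a cytokine) and PLOD2 (a collagen lysyl hydroxylase) differed by 0.15, 0.13 and 0.10. Of further oxygen-sensing genes, 14 of 15 were measured, 0 passed, and the median was 0.06; EP300 (a coactivator of the factors), ELOB (of the VHL ubiquitin ligase) and RBX1 (of the same ligase) differed by 0.15, 0.10 and 0.08. By replicate number 8, 18 and 7 genes of these lists passed the F test (29.6%, 54.5% and 50%), against 44.2% of all genes.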

How the data were processed

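RNA of 6 arrays was compared, 3 of Bf 140 nM and 3 of DMSO 0.6%. The authors read intensities with GCOS, normalized by VSN in R 2.5.0 and deposited log2 values; the probe summary and the set of arrays normalized jointly are not given in the sources used here, and base 2 was taken from the method. The study's Present-call filter was not repeated, and SAM was replaced by limma 3.58.1 (lmFit, eBayes; R 4.3.3) at the same 10% level, on 22215 probe sets left after 62 controls, with Benjamini-Hochberg adjustment. Platform annotation gave 1 symbol to 19064 probe sets, several to 1043 and no symbol to 2108. Members and lists were chosen with earlier results of these data known; named were all members, and in each further list up to 3 genes with the smallest p. Same-numbered arrays deviated together (correlations 0.725, 0.783 and 0.880), so the replicate number was fitted as a block as an alternative. Other alternatives were the normalization, dim-probe filter, variance moderation, array weights, mean of probe sets, threshold and leaving out arrays. Statistics were tested on simulated data. Promoter sequences are from RefSeq, GRCh38.p14. No value column was left unused (0).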

Additional observations from a re-analysis of the deposited data

How the results depend on the processing

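No member was called higher or lower under any alternative run. The median difference of members, 0.008 on the log2 scale, was 0.008 with the replicate block, which changed no call, 0.008 with quantile normalization, −0.011 with equal array medians, 0.005 with the filter and with the mean of probe sets, and 0.062 with array weights, whose estimation stopped before its tolerance. Leaving out 1 array gave −0.018 to 0.059, lowest without Bf replicate 1 and highest without DMSO replicate 1. Single members moved most where replicate numbers differ: EPAS1 from −0.54 to 0.45 and PKM from −0.53 to 0.46 with 1 array left out. Without both replicate 3 arrays, chosen after seeing the data, the median was 0.031, and with the block 25 probe sets passed, 0 of them members' brightest ones. Members differing by replicate number were 18 of 32, and 18 to 20 of 32 under alternatives, where 36.5% to 49.3% of all genes did; with the filter they were 16 of 27 (59.3%), no more than the 60.4% of all genes. The cause of these changes was not tested. Without the block, the intervals of 25 of 32 members excluded a 1.5-fold change, and for the others that fit could not resolve a change of that size. With the replicate block the intervals of all 32 members excluded it on the VSN scale.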
